A study of Mus musculus with 26 samples.

Results

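The genes described are the mouse glutathione, glucuronosyl and sulfo transferases, which attach a polar group to drugs, steroids, bilirubin and reactive intermediates. They were chosen by name among genes with an RNA polymerase II (Pol II) row of at least 500 bp and a symbol used once. Names beginning with Gst followed by the class letter a, k, m, o, p, t or z and a digit gave 21 members, Ugt and a digit gave 13, and Sult and a digit gave 11. These 45 genes were taken from 20933 measured genes.

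The livers came from male C57BL6/J mice, 7 weeks old, in which 3 of 5 lobes had been taken out, an operation called partial hepatectomy. Pol II, C/EBPalpha and C/EBPbeta were each mapped by ChIP-seq at 0, 3, 8, 16, 24, 36, 48 and 168 h, and Egr1 at 36 h. Livers of 5 mice were taken at each time, and the labels do not say whether they were pooled into 1 library. The lobes cut away served as the 0 h sample, so time after surgery and lobe cannot be told apart at 0 h. All animals were wild type. Every antibody and time had 1 library, so no comparison of 2 times has a replicate check, and all changes against 0 h share the same 0 h library.

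Glutathione transferases (Gst) join glutathione to electrophiles and are split into alpha, mu, pi, theta, omega, kappa and zeta classes. UDP-glucuronosyltransferases (Ugt) sit in the endoplasmic reticulum and use UDP-glucuronic acid, with Ugt1 enzymes handling bilirubin and phenols and many Ugt2 enzymes handling steroids and bile acids. Cytosolic sulfotransferases (Sult) use the donor PAPS. Hepatocytes are the main site of these reactions, and C/EBPalpha and C/EBPbeta are bZIP factors that bind many hepatocyte promoters.

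Before the values, 4 of the promoters named in the binding results below are shown. C/EBP lists placed a site near the start of each gene, as they did for other tested genes such as Gstt1, Gstz1 and Ugt2a3. Sequences run 5' to 3', from 250 bases before to 50 after the RefSeq start, and come from RefSeq on GRCm38.p6. They lie at chr1:21240335-21240634 (plus strand), chr5:87140291-87140590 (minus), chr5:86906888-86907187 (minus) and chr5:87092506-87092805 (minus). Capitals mark matches to TTGCNNAA on either strand, a relaxed form of the C/EBP motif.
Gsta3: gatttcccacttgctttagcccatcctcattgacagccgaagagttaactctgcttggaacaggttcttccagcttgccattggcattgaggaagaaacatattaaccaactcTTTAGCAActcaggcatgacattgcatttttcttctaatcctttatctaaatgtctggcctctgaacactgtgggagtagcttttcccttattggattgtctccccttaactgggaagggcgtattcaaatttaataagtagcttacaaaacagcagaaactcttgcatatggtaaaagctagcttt
Ugt2b5: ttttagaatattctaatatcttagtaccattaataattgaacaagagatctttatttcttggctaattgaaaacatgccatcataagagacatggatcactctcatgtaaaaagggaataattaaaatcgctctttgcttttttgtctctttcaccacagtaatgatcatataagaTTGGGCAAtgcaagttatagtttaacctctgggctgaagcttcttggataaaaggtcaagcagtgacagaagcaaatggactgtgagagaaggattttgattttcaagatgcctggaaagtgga
Ugt2b34: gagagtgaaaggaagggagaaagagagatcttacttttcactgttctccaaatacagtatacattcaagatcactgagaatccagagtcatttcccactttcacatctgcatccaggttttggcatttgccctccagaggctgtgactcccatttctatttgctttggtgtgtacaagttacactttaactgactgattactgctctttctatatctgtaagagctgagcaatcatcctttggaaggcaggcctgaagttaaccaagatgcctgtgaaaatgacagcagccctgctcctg
Ugt2b36: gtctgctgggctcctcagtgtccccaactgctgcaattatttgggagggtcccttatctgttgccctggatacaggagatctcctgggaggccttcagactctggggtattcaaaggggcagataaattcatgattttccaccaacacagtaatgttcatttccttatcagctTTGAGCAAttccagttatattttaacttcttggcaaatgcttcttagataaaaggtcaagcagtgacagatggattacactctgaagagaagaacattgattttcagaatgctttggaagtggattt

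Positions are counted from the RefSeq start, upstream bases being negative. The match was centred at -133 in Gsta3, -70 in Ugt2b5 and -73 in Ugt2b36, and these letters were not in the Ugt2b34 window. In Gsta3 a match to TGACNNNGC, the core of the NRF2 motif, was centred at -117. Of 32851 RefSeq mouse promoters of the same 300 bases, 10.8% held TTGCNNAA and 12.4% held TGACNNNGC. Of the 45 transferase genes, 40 matched the promoter table, with 50 promoters, and 9 of the 40 had TTGCNNAA and 3 had TGACNNNGC in at least 1 of them. Of 15 matched tested genes 7 had TTGCNNAA and 1 had TGACNNNGC. These counts are per gene and the percentages per promoter, so they are not directly comparable. A match is only a description of letters. The Pol II row of Gsta3 implied a gene 597 bp shorter than in RefSeq, so its RefSeq start may not be the start used for the row, while Ugt2b5, Ugt2b34 and Ugt2b36 differed from RefSeq in length by 11 bp at most.

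The Pol II signal is a deposited score with a sign, 1 per gene row, and the rows begin 500 bp inside the gene. Values below 0 are common, and the sources used here do not describe how background was treated. The score was divided by row length and rescaled between libraries, and is given as signal units per bp. The library of 3 h differed from the rest. Its summed deposited signal was -16276217, against 32639618 or more in each of the other 7, and 50.6% of its entries were below 0, against 38.4% to 44.3% in the others. At 3 h 36 of the 45 transferase genes were below 0, which is 80.0%, against 21 to 29 at the other times, and 69.2% of all measured genes were below 0 at 3 h, against 51.7% to 59.5% at the others. The part of this in the 3 h values below was not tested, beyond taking the median of all genes off each library. All 8 hepatocyte markers passed the signal limit used below. Their summed level, 367 to 717 units per bp, was carried by Apoa1, with 649 at 3 h, against 305 at 0 h, and the other 7 summed to 68.2 at 3 h, against 120 at 0 h, and to 138 to 233 at the remaining times. At 3 h 3 of these 8 were lower and 1 higher by 1 or more on the log2 scale, with a median of -0.51. Of 5 measured Kupffer cell and macrophage markers 3 passed, with a summed level of 1.11 to 4.89, and of 4 endothelial markers 1 passed, at -0.733 to 1.89. None of the cholangiocyte, stellate and lymphocyte or neutrophil markers passed it. In whole liver, fewer cells of a type and less Pol II per cell cannot be told apart.

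Of the 45 genes, 16 had more than 0.5 signal units per bp in at least 2 libraries and are called tested: 8 Gst, 7 Ugt and 1 Sult gene, among 4761 tested genes in all. Of the other 29, 26 never passed 0.5 and 3 did so in 1 library. The 29 ranged from -0.978 to 2.21 units per bp. This limit keeps genes that were high at only some times, so counts over the 16 describe those 16 and not the families. Changes are log2 differences of signal + 0.5, with values below 0 set to 0, and a change of 1 or more is counted as lower or higher.

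**Figure D1:**
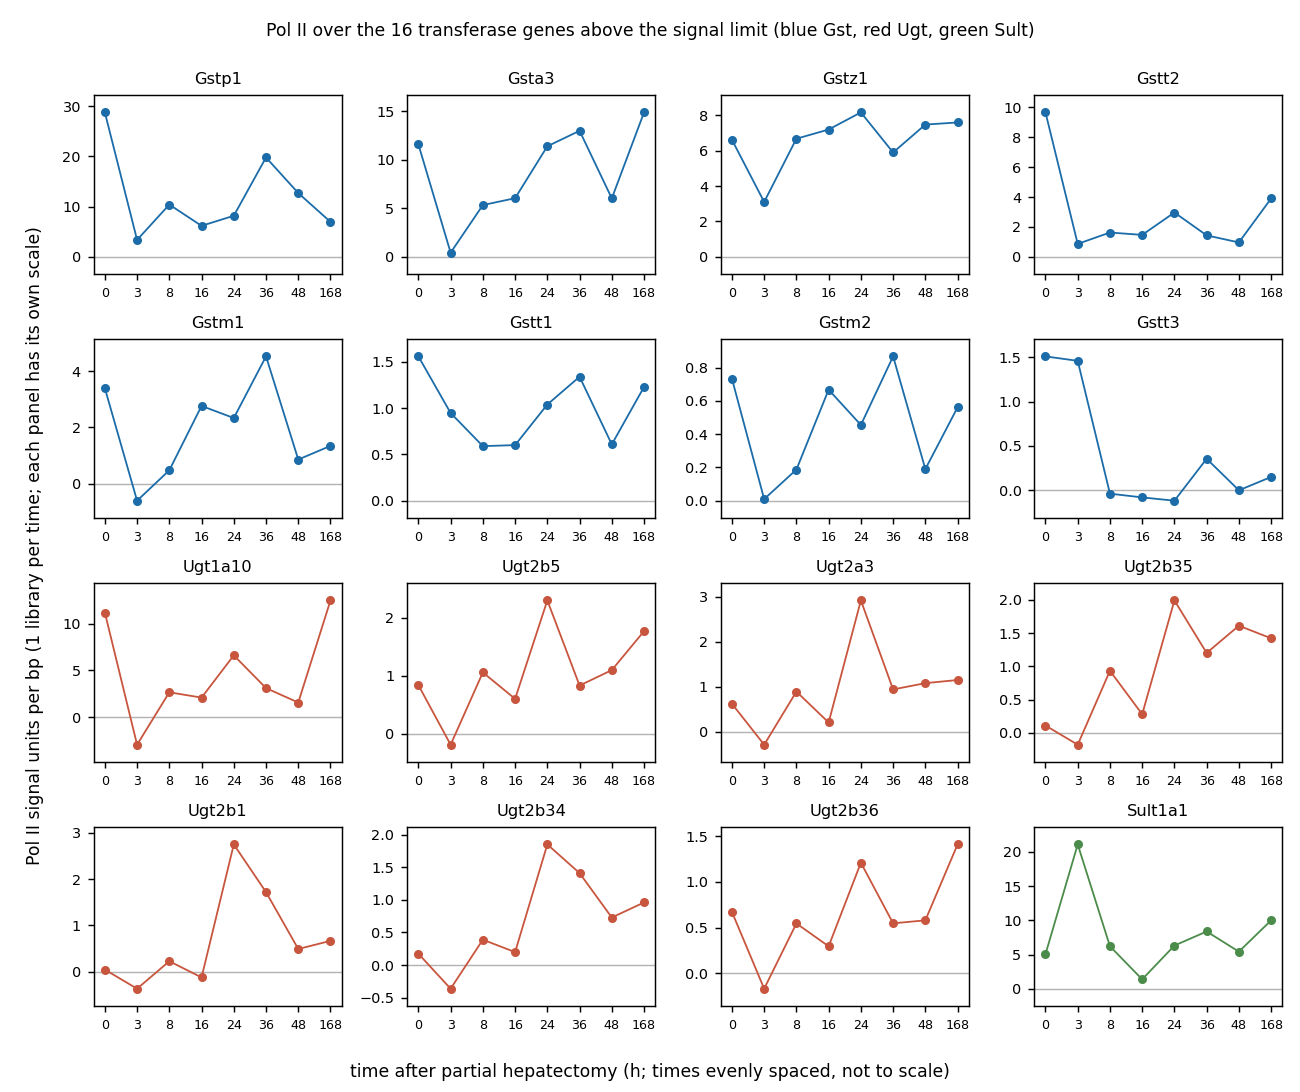
Pol II signal units per bp (vertical axis, own scale in each panel) by time after partial hepatectomy in h (horizontal axis, evenly spaced) for the 16 tested genes, with 1 library per point and no error bars. All 15 Gst and Ugt genes lie lower at 3 h than at 0 h (Gstt3 by -0.03 on the log2 scale, or 0.04 with the median of all genes taken off), Sult1a1 peaks at 3 h with 21.1 units per bp, and 5 of 6 Ugt2 genes peak at 24 h.

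Pol II over the glutathione transferases was lower at 3 h than at 0 h for all 8 tested genes, by 1 or more for Gstm1, Gstm2, Gstt2, Gsta3 and Gstp1. With the median of all genes taken off each library, Gstm2 at -0.87 was no longer called at 3 h and Gstt3 was at 0.04 in place of -0.03. The median change of the 8 genes over the 7 later times in order was -2.09, -1.23, -0.90, -0.44, -0.16, -1.02 and -0.67. None of the 8 was higher by 1 or more at any time. Across all 16 transferase genes 9 were lower by 1 or more at 3 h, which is 56.2%, against 21.4% of all tested genes. The median change of the 16 was -1.20, against -0.08 over all tested genes.

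The highest signal in the set was on Gstp1, the pi-class enzyme, whose row lies at chr19:4035412-4037421 in mm9. Gstp1 had 28.8, 3.35, 10.4, 6.16, 8.17, 19.8, 12.7 and 6.94 signal units per bp at 0, 3, 8, 16, 24, 36, 48 and 168 h. It was therefore highest at 0 h, lowest at 3 h and lower by 1 or more at 6 of 7 later times, the exception being 36 h with -0.52. The change was -2.93 at 3 h and -1.98 at 168 h. Its neighbour Gstp2, a close copy 2930 bp away, never passed 0.5 units per bp and was between -0.556 and 0.362. The sources used here do not say how reads that fit both copies were counted, so the division between them is uncertain, and the same holds for the Gsta, Gstm and Ugt2b copies.

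Gstt2, a theta-class gene, showed the most lasting difference among the Gst genes, being lower by 1 or more at all 7 later times. Its values in the same order were 9.67, 0.858, 1.62, 1.46, 2.96, 1.43, 0.955 and 3.90 units per bp. The changes lay between -2.90 at 3 h and -1.21 at 168 h, so even the highest later value was well under the 0 h value. The Gstt2 row covers 45.9% of the RefSeq gene length with the 500 bp added.

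The theta genes lie together in mm9 at chr10:75236871-75296655, in the order Gstt3, Gstt1, Gstt4 and Gstt2, with 0 other measured genes between them. Gstt3 had 1.51, 1.46, -0.0386, -0.0808, -0.118, 0.355, -0.000551 and 0.150 units per bp, so the 3 h value was close to 0 h and the later 6 were all lower by 1 or more, with changes of -2.01 to -1.23. Gstt1, whose human counterpart metabolises small halogenated compounds, had 1.56, 0.948, 0.590, 0.601, 1.04, 1.34, 0.609 and 1.23 units per bp. All 7 changes of Gstt1 were below 0 and none reached 1, with the largest at -0.92. Gstt4 lay between -0.223 and 0.161. Ddt, the gene 1251 bp from the Gstt3 row, had 1.48 to 3.28 units per bp at the 7 later times, against 11.0 at 0 h, so a non-member next to the cluster was lower too. Whether signal from Ddt reached the Gstt3 row was not tested.

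Gsta3, the alpha-class enzyme that detoxifies aflatoxin epoxide in mice, had 11.6, 0.413, 5.33, 6.04, 11.4, 13.0, 6.02 and 14.9 units per bp. Its 3 h value was the lowest of the 8, at a change of -3.72, and the values at 24, 36 and 168 h were near or above that at 0 h. Without rescaling the 168 h value was below that at 0 h, with 9.15 units per bp at 168 h, against 13.9 at 0 h, a change of -0.58. The other alpha genes, Gsta1, Gsta2 and Gsta4, form a group on chromosome 9, and none passed 0.5 units per bp at any time. Gsta1 ranged from -0.0857 to -0.0434.

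Among the mu-class genes of chromosome 3, 2 of 7 were tested. Gstm1, a major hepatic mu enzyme, had 3.39, -0.608, 0.473, 2.76, 2.33, 4.52, 0.855 and 1.34 units per bp. Gstm2 had 0.733, 0.00958, 0.187, 0.667, 0.455, 0.867, 0.190 and 0.561. Both genes had their lowest value at 3 h and their highest at 36 h, and both were lower at 48 h than at 168 h. Gstm3 was above 0.5 at 36 h only, with 2.21, and its 8 values were -0.397, -0.309, -0.171, 0.0268, 0.0525, 2.21, -0.0754 and -0.276. Gstm4, Gstm5, Gstm6 and Gstm7 never passed 0.5. Gstm6 was the only one of the 45 genes whose row overlapped another row, and the Gstm4, Gstm6 and Gstm7 rows covered 25.5%, 11.3% and 25.1% of their RefSeq lengths.

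Gstz1 encodes maleylacetoacetate isomerase of tyrosine breakdown, and its Pol II signal was the steadiest of the high Gst genes. It had 6.62, 3.10, 6.68, 7.20, 8.17, 5.90, 7.48 and 7.60 units per bp. Its row covers 40.3% of the RefSeq length with the 500 bp added. Its change at 3 h was -0.98, just under the limit, and its other changes lay between -0.15 and 0.28. Gstk1, the kappa-class enzyme of mitochondria and peroxisomes, had 0.0581, -0.351, 0.0600, 0.401, 1.68, -0.121, 0.176 and 0.0268, above 0.5 at 24 h only. The omega genes Gsto1 and Gsto2 never passed 0.5.

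**Figure D2:**
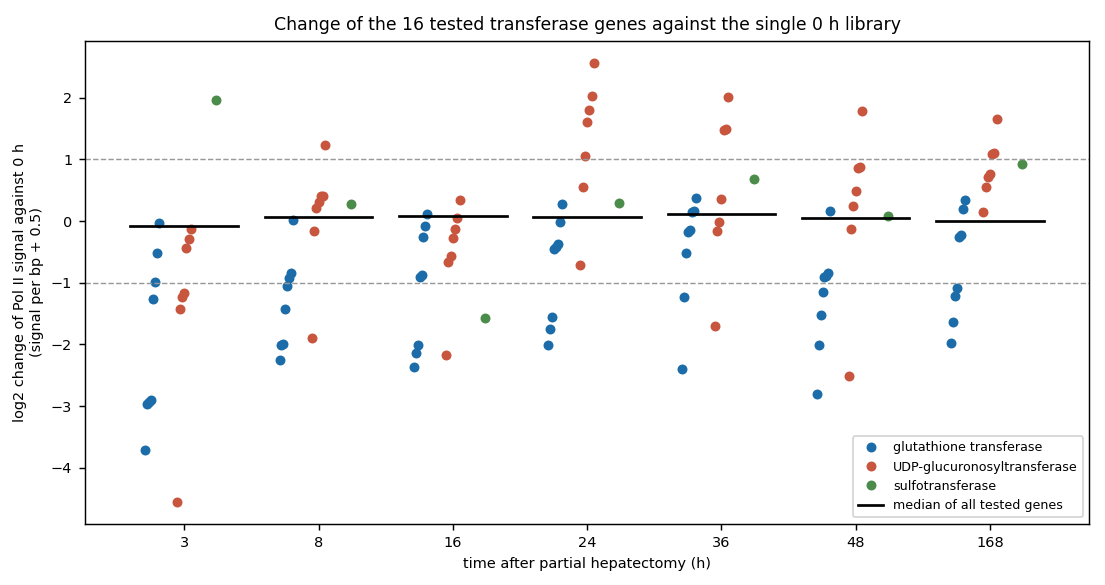
Log2 change of Pol II signal (signal units per bp + 0.5; vertical axis) against the single 0 h library at each later time in h (horizontal axis), 1 point per tested gene, with dashed lines at -1 and 1. Gst points lie mostly below the black median of all 4761 tested genes, while 5 Ugt points lie above 1 at 24 h, of which Ugt2b5 is at 0.77 without rescaling.

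Of 13 glucuronosyltransferases 7 were tested, and 5 Ugt2 genes among them were higher at 24 h than at 0 h by 1 or more. All 7 tested Ugt genes were lower at 3 h than at 0 h, with a median of -1.17, against -0.08 over all tested genes. By 1 or more 4 of the 7 were lower, against 21.4% of all tested genes. All 7 were below 0 units per bp at 3 h and were set to 0. Ugt2b1, Ugt2b34 and Ugt2b35 were already near 0 at 0 h, so their differences lie near the floor. The 5 genes higher at 24 h made 31.2% of the 16 transferase genes, against 18.4% of all tested genes, and the median of the 7 at 24 h was 1.61. Without rescaling Ugt2b5 was no longer called at 24 h, at 0.77. Of the 8 hepatocyte markers 2 were higher by 1 or more at 24 h and 0 lower, with a median of 0.72 and 3.02 for Cps1, and their part in the Ugt values was not tested. At 168 h all 7 were above 0 h, with a median of 0.76, but without rescaling Ugt1a10 was at -0.77 and Ugt2a3 at -0.04.

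The row named Ugt1a10 lies in mm9 at chr1:90109078-90115572. It covers 4.25% of the length that RefSeq gives this gene, and the Ugt1a genes share their last exons, so its signal cannot be assigned to 1 of them. It had 11.2, -2.97, 2.65, 2.08, 6.61, 3.10, 1.55 and 12.5 units per bp. The 168 h value differed from that at 0 h by 0.15 on the log2 scale, and those between were lower than both. They were lower than at 0 h by 1 or more at 3, 8, 16, 36 and 48 h. Without rescaling the values were 7.72 at 168 h, against 13.5 at 0 h, a change of -0.77. At 3 h it ranked 20907 of 20933 measured genes, whereas at 0 h it ranked 236, and its change of -4.55 at 3 h was the largest of the 16 genes. With the median of all genes taken off each library this change was -4.56. The value of -2.97 was set to 0 before the log, and with a pseudocount of 0.05 the change was -7.82. The part of the 3 h library in this value was not tested further.

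The Ugt2 genes lie in mm9 at chr5:87318797-88020119 in a stretch of 701 kb that also holds Sult1b1, Sult1d1 and Sult1e1, 12 members with 0 other measured genes between them. Of these 12, 6 Ugt2 genes were tested. Ugt2a3 had 0.622, -0.289, 0.892, 0.205, 2.92, 0.940, 1.08 and 1.15 units per bp. Ugt2b5 had 0.841, -0.185, 1.06, 0.605, 2.30, 0.834, 1.10 and 1.77. In both genes the 3 h value was below 0 and the 24 h value was the highest of the 8, with changes of 1.61 and 1.06 at 24 h.

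Ugt2b1, Ugt2b34 and Ugt2b35 were near 0 at 0 h, with 0.0472, 0.174 and 0.109 units per bp. Ugt2b1 had -0.366, 0.228, -0.122, 2.75, 1.72, 0.492 and 0.668 at the 7 later times. Ugt2b34 had -0.363, 0.389, 0.198, 1.85, 1.41, 0.729 and 0.960. All 3 genes were higher by 1 or more at 24, 36 and 168 h. Ugt2b1 was above 0.5 units per bp at these times only, Ugt2b34 at these and 48 h, and Ugt2b35 at these, 8 and 48 h. The calls of all 3 genes are thus not independent of the signal limit. At 168 h Ugt2b1 and Ugt2b34, at 1.09 and 1.11, were no longer called without rescaling, at 0.71 and 0.62, or with the median of all genes taken off, at 0.92 and 0.97. Ugt2b35 had -0.179, 0.932, 0.279, 1.99, 1.20, 1.61 and 1.42, and was higher by 1 or more at 8, 24, 36, 48 and 168 h. The changes at 24 h were 2.57 for Ugt2b1, 1.80 for Ugt2b34 and 2.03 for Ugt2b35.

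Ugt2b36 differed from these, with its highest value at 168 h. It had 0.672, -0.168, 0.546, 0.296, 1.21, 0.547, 0.580 and 1.41 units per bp, and its change at 24 h was 0.55. The remaining Ugt2 genes, Ugt2a2, Ugt2b37 and Ugt2b38, lay between -0.233 and 0.0907 at all times although they stand between or beside the others. Outside the cluster, Ugt3a2 had -0.138, -0.169, 0.0729, -0.0397, 0.0622, 0.0833, 0.0782 and 0.295. Ugt3a1 and Ugt8a, the galactosyltransferase of myelin lipid synthesis, were below 0 at every time.

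**Figure D3:**
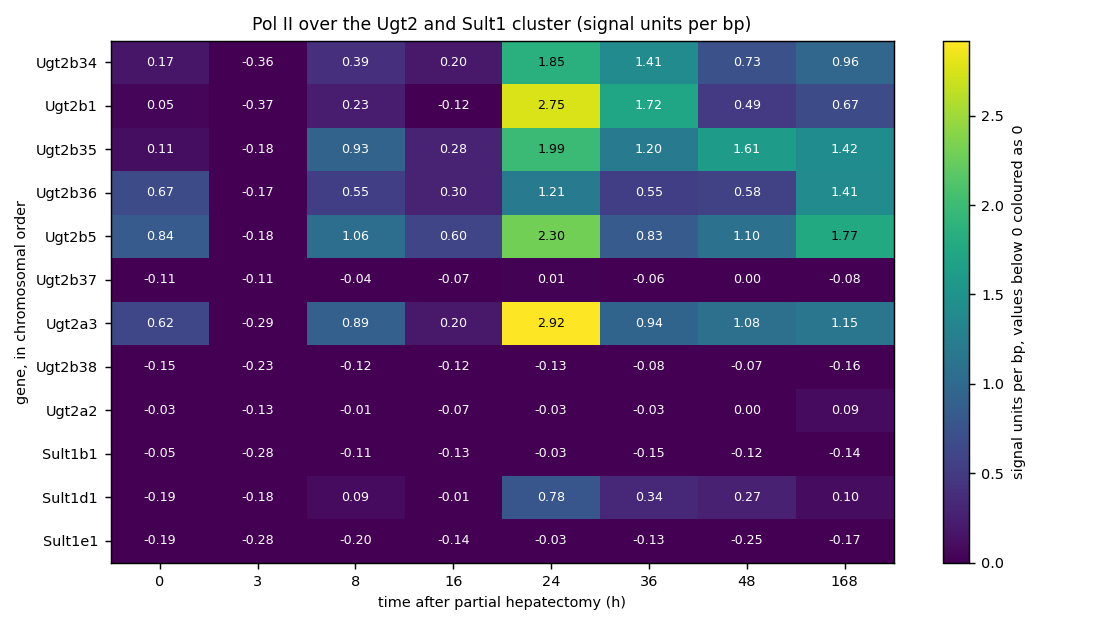
Pol II signal units per bp (colour and printed number, values below 0 coloured as 0) for the 12 genes of the Ugt2 and Sult1 cluster in chromosomal order (rows) by time in h (columns), 1 library per column. The 24 h column holds the highest value of 5 of the 6 tested Ugt2 genes and of Sult1d1, and the other 5 untested genes stay between -0.283 and 0.0907.

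Of the 11 sulfotransferases only Sult1a1, the phenol sulfotransferase, was tested. It had 5.05, 21.1, 6.21, 1.37, 6.31, 8.37, 5.42 and 10 units per bp. Sult1a1 was the only one of the 16 transferase genes higher by 1 or more at 3 h, with a change of 1.96, when 18.1% of all tested genes were higher. At 16 h its change was -1.57. Its row at chr7:133816658-133819371 in mm9 covers 18.3% of the RefSeq length and ends 365 bp from the row of Ccdc101, which had 13.2 units per bp at 3 h, against 3.24 at 0 h. The neighbours thus moved alike at 3 h, and whether signal of one reached the other was not tested.

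Sult1d1, in the Ugt2 cluster, had -0.192, -0.177, 0.0887, -0.00984, 0.782, 0.342, 0.265 and 0.102 units per bp, above 0.5 at 24 h only, when 5 Ugt2 genes of that cluster were also highest. Sult2a1, the hydroxysteroid sulfotransferase that in mice is mainly a female liver enzyme, had -0.105, -0.111, -0.0710, -0.0642, -0.0597, -0.0615, -0.0700 and -0.0840. Sult1b1 had -0.0452, -0.281, -0.112, -0.134, -0.0279, -0.154, -0.123 and -0.145. Both were below 0 in all 8 libraries. Sult1c1 had -0.185, -0.318, -0.0889, -0.170, -0.0787, -0.174, -0.0908 and 0.0524. Sult3a1 had -0.247, -0.263, -0.147, -0.165, -0.111, -0.0600, -0.141 and -0.115. The oestrogen sulfotransferase gene Sult1e1, the cholesterol sulfotransferase gene Sult2b1, the brain form Sult4a1, Sult1c2 and Sult5a1 never passed 0.5.

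At the other times the counts over the 16 genes stood as follows. At 8 h 6 were lower and 1 higher by 1 or more, against 12.8% lower and 14.5% higher among all tested genes. At 16 h 5 were lower and 0 higher, against 10.6% and 15.1%. At 24 h 3 were lower, against 14.4%. These 3 were Gstt2, Gstt3 and Gstp1, which were also lower at 8, 16, 48 and 168 h. At 36 h 3 were lower and 3 higher, against 11.1% and 16.5%, so the share higher was near that of all tested genes. At 48 h 5 were lower and 1 higher, against 13.5% and 15.2%. At 168 h 4 were lower and 3 higher, against 19.3% and 17.7%, both near those of all tested genes.

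A smooth trend over the 8 times was tested for all 4761 genes with limma (natural spline with 3 degrees of freedom over the rank of time, Benjamini-Hochberg adjustment). None of the 16 transferase genes passed an adjusted p of 0.05, 0 of 16, when 1 of all tested genes did, which is 0.0210%. At an unadjusted p under 0.05 there were 3 of the 16, which is 18.8%, against 9.62% of all tested genes. The smallest limma p was that of Gstt3, 0.0235, with an adjusted p of 0.501, and the others were those of Ugt2b35, 0.0392, and Ugt2b34, 0.0427. Gstt3 was among the tested genes through its 0 and 3 h values alone. Ugt2b35 was among them only through 8, 24, 36, 48 and 168 h, and Ugt2b34 only through 24, 36, 48 and 168 h. The p values of these 3 genes and their share are thus not independent of the signal limit. With 8 libraries and no replicates, this test covers smooth change only.

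Genes that feed or follow the 3 conjugation reactions were examined in 8 lists of 64 genes, of which 61 were measured and 44 tested. Over these 44, 15 were lower and 7 higher by 1 or more at 3 h, which is 34.1% and 15.9%, against 21.4% and 18.1% of all tested genes. At 24 h 7 were lower and 13 higher, 15.9% and 29.5%, against 14.4% and 18.4%. At 8, 16, 36 and 48 h 11.4%, 4.55%, 13.6% and 13.6% were lower, against 12.8%, 10.6%, 11.1% and 13.5%. The shares higher at these times were 9.09%, 13.6%, 13.6% and 6.82%, against 14.5%, 15.1%, 16.5% and 15.2%. At 168 h 5 were lower and 12 higher, 11.4% and 27.3%, against 19.3% and 17.7%. Without rescaling only 6.15% of all tested genes were higher at 168 h, and the 44 were not counted in that way. By limma 0 of the 44 had an adjusted p under 0.05 in the trend test, and 7 had an unadjusted p under 0.05, which is 15.9%, against 9.62% of all tested genes. Of the export and uptake transporters 7 of 8 tested were lower at 3 h, with a median of -1.99 and the largest change, -2.76, for Abcc2, the canalicular pump for glucuronides and glutathione conjugates. Abcc2 had 0.509 units per bp at 3 h, against 6.32 at 0 h. The smallest change of that list was -0.20 for the bile salt pump gene Abcb11. At 24 h 3 of the 8 transporters were higher and 1 lower.

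The 4 genes of UDP-glucuronate supply were all higher by 1 or more at 168 h and 3 of them at 24 h, with medians of 1.27 and 1.14. The rescaling factor was 0.616 at 168 h, against 1.20 at 0 h. Whether the 4 genes stay called at 168 h without rescaling was not computed. At 3 h their changes lay between -0.59, for both Ugdh, which makes UDP-glucuronate, and Slc35d1, which carries it into the endoplasmic reticulum, and 2.07 for Slc35b1, also described as an ATP carrier of that membrane. Of the 9 tested genes of glutathione synthesis and recycling 2 were lower and 2 higher at 3 h, with Gclm, the modifier subunit of glutamate-cysteine ligase, at -1.65 and Oplah at 2.05. The 1 tested microsomal glutathione transferase, Mgst1, had a change of 0.64 at 3 h.

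For sulfate donor supply 1 of 3 tested genes was lower at 3 h, the PAPS synthase gene Papss2 at -1.48, and the highest change was 0.86 for Slc35b3. In the NRF2 list, the oxidative stress pathway that induces many Gst genes, 2 of 5 tested genes were higher and 0 lower at 3 h, with haem oxygenase gene Hmox1 at 2.51 and Keap1, the NRF2 inhibitor, at -0.28. Among 7 xenobiotic sensors 2 were lower and 1 higher at 3 h. Nr1i3, which encodes the nuclear receptor CAR, had 3.79 units per bp at 3 h, against 22.5 at 0 h, and Ahr had a change of 1.32. Of 7 tested other conjugating and hydrolysing enzymes 3 were lower and 1 higher at 3 h, with the epoxide hydrolase gene Ephx1 at -2.86 and the nicotinamide methyltransferase gene Nnmt at 4.60.

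Binding of C/EBPalpha and C/EBPbeta near these genes was read from 16 deposited region lists, each cut to its best 20061 regions, the length of the shortest list. A C/EBPalpha region lay within 10 kb of the gene start in all 8 lists for 15 of the 45 genes, 33.3%, against 14.1% of measured genes. Among the tested genes it was 9 of 16, 56.2%, against 33.2%. For C/EBPbeta it was 14 of 45, 31.1%, against 13.8%, and 10 of 16 tested, 62.5%, against 33.2%. Members of 1 cluster share regions, so these counts are not independent.

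Within 1 kb of the start, 4 genes had a region in all 8 lists of either factor, namely Gstm2, Ugt1a10, Gstt1 and Gsta3. That was 8.89% of the 45 genes, against 4.28% of measured genes for C/EBPalpha and 4.29% for C/EBPbeta. All 4 are tested genes. Starts here are set by the rows, and the rows of Ugt1a10 and Gstt1 implied genes 157597 and 1187 bp shorter than in RefSeq. Single lists placed a region within 10 kb of 21 to 26 of the 45 genes for C/EBPalpha and of 22 to 28 for C/EBPbeta. The shares of all measured genes were 25% to 31.0% and 25.7% to 35.1%. The counts for the 2 factors at 3 h were 26 and 22, with 29.3% and 35.1% of measured genes, and those at 0 h were 22 and 23, with 26.7% and 26.3%. In all, 9 of the 45 genes had no region within 10 kb in any of the 16 full lists, and none of them was tested: Ugt8a, Gstm5, Sult1c1, Sult1c2, Ugt2a2, Ugt2b38, Ugt2b37, Sult2b1 and Sult3a1.

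Region centres of the full lists that lay within 100 bp of each other were joined into sites, giving 174 sites around the 45 genes. Of these 20 were in all 16 lists and 73 in 1 list, 28 of them in the C/EBPbeta 0 h list only, which with 54574 regions is the longest. Distances are from the gene start, upstream being negative. A site in all 16 lists lay at -158 bp in Gsta3, at -214 bp in Gstt1, at -74 bp in Ugt1a10, at -31 bp in Ugt2b34 and at 208 bp in Gstm2. The Ugt2b34 promoter printed above, without TTGCNNAA, thus carried a site in every list. The Gsta3 distance is from the row start, so whether that site lies in the printed window was not settled. For Ugt1a10 and Gstt1 too, whether the site lies at the RefSeq start was not settled. In Ugt2b5 the site at -52 bp was in 14 lists, and the motif match was at -70. Untested Ugt3a2 also had a site in all 16 lists, at -90 bp, with at most 0.295 units of Pol II signal per bp.

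Around the 6 tested Ugt2 genes the lists of 24 h held the most sites. Of 36 sites, 18 were in the 24 h list of C/EBPalpha, against 9 in its 0 h list, and 19 were in the 24 h list of C/EBPbeta, against 9 at 0 h. In the order of times the C/EBPalpha counts were 9, 8, 4, 11, 18, 14, 4 and 6, and the C/EBPbeta counts 9, 4, 9, 16, 19, 9, 5 and 4. For the other 10 tested genes 31 of 77 sites were in the 24 h list of C/EBPalpha, against 30 at 0 h, and 29 were in that of C/EBPbeta, against 39. The 24 h lists held 29847 and 34098 regions and were not the longest of either factor. This count was chosen after the values were seen and has no test.

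The Ugt2b1 site at -114 bp was in the C/EBPalpha lists of 16, 24 and 36 h and the C/EBPbeta list of 16 h only. The Ugt2b36 site at -52 bp, in the promoter printed above, was in the lists of 24 and 36 h for C/EBPalpha and of 16, 24 and 36 h for C/EBPbeta. Absence from a list means only that no region was called there at that depth. At Gstt2 the site inside the gene nearest to the start was in 10 lists and in neither 0 h list. Other Gstt2 sites were in 0 h lists, those at -506 and -3347 bp in that of C/EBPbeta. The site at -3177 bp was in 11 lists, among them the 0 h list of C/EBPalpha. The Gstt2 row covers 45.9% of the RefSeq length, so the start used is uncertain.

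**Figure D4:**
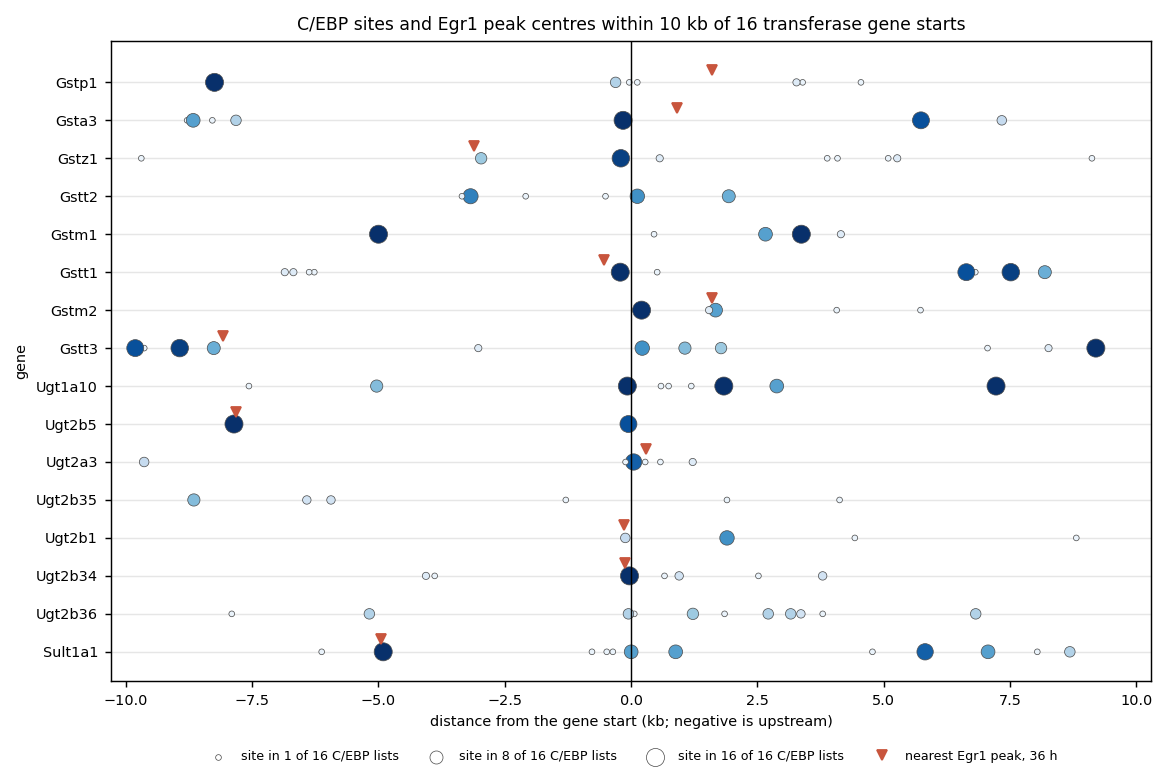
Distance in kb from the gene start (horizontal axis) of every C/EBP site within 10 kb of the 16 tested genes (vertical axis), where a larger and darker circle means more of the 16 lists, and triangles mark the centre of the nearest Egr1 peak at 36 h. Gsta3, Gstt1, Ugt1a10, Ugt2b34 and Gstm2 have a site in all 16 lists within 1 kb of the start set by the row.

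Egr1, an immediate early zinc finger factor, was mapped at 36 h in 1 library with 9895 peaks. An Egr1 peak centre lay within 10 kb of the start of 20 of the 45 genes, 44.4%, against 10.9% of measured genes, and of 11 of 16 tested, 68.8%, against 19.5%. The peak at Gsta3 covered the gene start, had a deposited score of 556 and ranked 610 of the 9895 peaks. Peaks also covered the starts of Gstt1, Ugt2a3, Ugt2b1 and Ugt2b34, and of untested Gsta1, Gsta2 and Ugt3a2. The GC-rich Egr1 motif GCGNGGGCG, searched on both strands, was in a promoter of 1 of 40 matched genes and of 0 of 15 matched tested genes. Of all 32851 promoters 5.55% held it, a share counted per promoter and not per gene.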

How the data were processed

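The deposited Pol II files give, per the file contents, a score: 1 signed value from the authors for each gene row, in which values below 0 are present. The C/EBP region lists and the Egr1 peak list also carry deposited scores. The build mm9 and the tools Bowtie 0.12.7 and MACS 1.4.1 are named, without their roles, per the submitters' processing notes. The sources used here do not say how the Pol II score was scaled or background treated, or how reads with several matches were treated. No read counts are in these files, so the depth is unknown, and intervals and floors were not computed.

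The score was divided by row length, each library was rescaled by a median of ratios, computed from 1472 genes above 0.5 units per bp in all 8 libraries, and log2(signal + 0.5) was compared with 0 h. Trends were fitted with limma 3.58.1 in R 4.3.3, and the script was tested on simulated data. Python 3.11.15 did the rest. Gene starts are the row edges moved back 500 bp by strand.

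Values at all times are given for the 10 Gst, 8 Ugt and 6 Sult genes with the highest mean signal, and for any further tested gene changed by 1 or more in 1 direction at 3 or more times. Members, lists and tests were chosen with earlier results of these data known. The IgG sample was not used here. Alternatives were the pseudocount, the signal limit, the rescaling, the distance to the start and leaving out each library.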

Additional observations from a re-analysis of the deposited data

How the results depend on the processing

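With a pseudocount of 0.05 in place of 0.5, 2 transferase genes were higher at 8 h in place of 1, 8 lower at 16 h in place of 5, 1 higher at 16 h in place of 0, 3 higher at 48 h in place of 1 and 5 higher at 168 h in place of 3. Without rescaling 8 were lower at 48 h in place of 5 and 1 was higher at 168 h in place of 3, when the median change of all tested genes at 168 h was -0.57. With the median of all measured genes taken off each library, 1 was higher at 168 h. Regions within 1 kb in place of 10 kb left 4 genes for C/EBPalpha, 4 for C/EBPbeta and 9 for Egr1, and only Egr1 peaks of at least the median score left 13. The cause was not tested, except that the shorter distance and the higher score leave fewer regions by construction. For Egr1 no share of all measured genes is given at these settings, so the 9 and 13 genes cannot be read against one. The other counts moved by 1.5 times at most, as for C/EBPbeta with the full lists, 21 genes in place of 14. Of 168 single changes 137 to 165 kept their side of the limit in the settings that can alter them. Dropping the signal limit cannot alter a single change. The 168 include untested genes such as Sult2a1, Sult1b1 and Sult3a1, whose changes were 0.00 at every time in the main setting. Of the changes of 1 or more, 0 turned direction. Smaller changes did turn: 12 without rescaling, among them Gsta3, Gstz1, Ugt1a10 and Ugt2a3 at 168 h, and 1 with the median taken off. Without rescaling Gstz1 at 168 h was at -0.71 in place of 0.19. Leaving out any 1 library left 0 transferase genes past the trend test, with a smallest adjusted p of 0.125 to 0.841. No paired analysis was possible because every group holds 1 sample. Depth is unknown, so signals near 0 cannot be told from absent Pol II.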
